A study of Mus musculus with 6 samples.

Results

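The genes of the mitochondrial respiratory chain were examined in regulatory T (Treg) cells that had been differentiated with or without sorafenib (Sora), a multikinase inhibitor used against liver cancer. Genes were taken by symbol from the deposited count table: the nuclear genes of NADH dehydrogenase (complex I), succinate dehydrogenase (complex II), the cytochrome bc1 complex (complex III), cytochrome c oxidase (complex IV) and ATP synthase (complex V), with cytochrome c, and the protein genes of mitochondrial DNA (mtDNA). This rule found 113 of 22939 genes in the table, of which 100 are nuclear and 13 lie on mtDNA. The nuclear genes include 8 complex I assembly factors of the Ndufaf series, which are not subunits and were counted apart where stated. They also include 4 copies of complex I genes, some of them pseudogenes. These copies were kept in the counts and medians of nuclear genes and subunits but left out of the ratios by complex. In the study, naive CD4+ T cells of Foxp3GFP knock-in mice on the C57BL/6J background, in which GFP is inserted at the Foxp3 locus, were cultured under Treg-skewing conditions with TCR stimulation and TGF-β1, and GFP+ cells were sorted for sequencing. The 3 ctrl-Treg libraries came from cultures without Sora and the 3 Sora-Treg libraries from cultures with it, and both groups carried the reporter allele. The Sora dose of the sequenced cultures, the age of the reporter mice, and whether the libraries of a group came from separate cultures or animals are not given in the sources used here, so p-values measure the spread between these libraries only.

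The respiratory chain passes electrons from NADH and succinate to oxygen through complexes I to IV, pumps protons across the inner mitochondrial membrane, and drives ATP synthesis through complex V. Its subunits come from separate genomes: mtDNA encodes core membrane subunits of complexes I, III, IV and V, and the nucleus encodes all of complex II and every other subunit. The mtDNA genes are transcribed as long transcripts from both strands that are cut into single RNAs, whereas each nuclear gene has its own promoter. Treg cells are known for relying on oxidative metabolism more than effector T cells do.

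In Sora-Treg cells, mtDNA transcripts were higher and nuclear transcripts were not moved in 1 direction. Of 12 mtDNA genes that passed the filter on low counts, 11 were higher and 0 lower (0 also at an unadjusted p under 0.05, and with DESeq2 and limma), with a median log2 fold change of 0.50 (edgeR quasi-likelihood test, adjusted p under 0.05, Benjamini-Hochberg over 13463 genes). Over all tested genes 29.7% were called higher and 29.9% lower by the same rule (59.6% in either direction), with a median of -0.0035. Of 95 nuclear genes that passed, 21 were higher, 31 lower and 43 not called, with a median of -0.025, shares of 22.1% and 32.6% that lie near the background. The nuclear changes were small: 87 of 95 stayed below 1.5-fold. Within 0.5 on the log2 scale were 85 of the 95, against 9469 of all 13463 tested genes. Of the nuclear genes, 1 (Cox4i2) was over 2-fold higher and 2 (Cox6a2 and Cox6b2) over 2-fold lower, against 6.30% and 4.97% of all tested genes. Among mtDNA genes, ND3 and ND6 were over 2-fold higher. The nuclear split depended on scaling. With library totals alone, which shift the median of all genes by -0.12, it was 10 higher and 48 lower, and with upper quartile scaling 16 higher and 40 lower, whereas the mtDNA count stayed at 11 higher and 0 lower under both. Other tests called fewer mtDNA genes higher: 8 with DESeq2, 7 with limma on log2(FPKM + 1), 5 with limma and no filter, and 6 with robust edgeR fitting. No member was called in the opposite direction under any alternative.

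**Figure D1:**
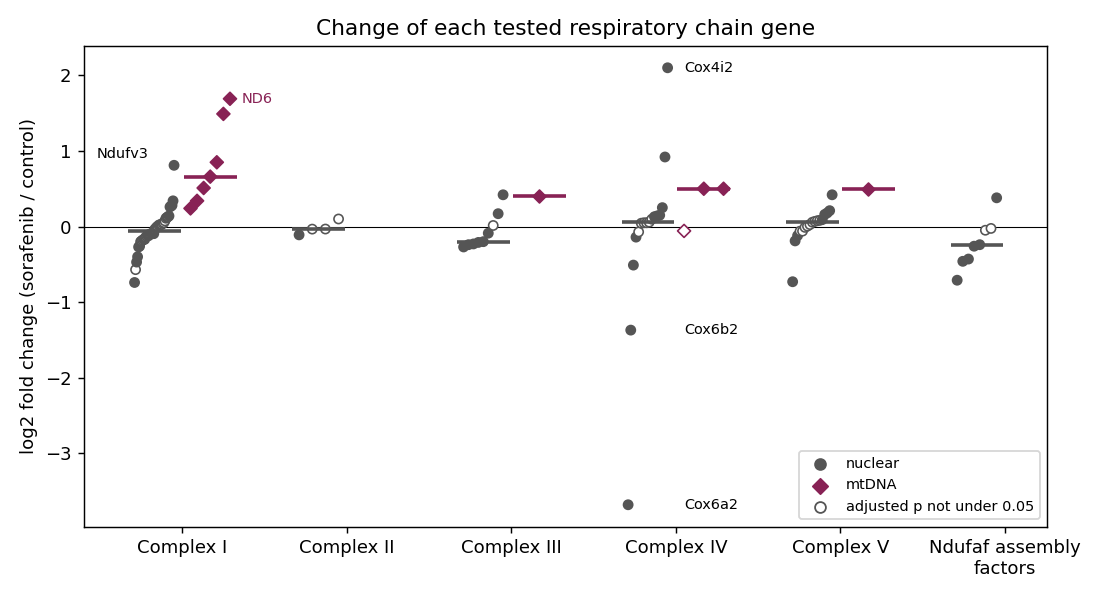
The log2 fold change (Sora over control) of each of 107 tested respiratory chain genes is plotted by complex. Circles are nuclear genes, diamonds mtDNA genes, open symbols have an adjusted p of 0.05 or more, and horizontal bars are medians; cytochrome c is not drawn. The mtDNA medians are 0.66, 0.40, 0.50 and 0.50 in complexes I, III, IV and V, and the nuclear medians lie between -0.25 (assembly factors) and 0.057 (complex V).

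Depth and cell identity were checked first. Total counts were 30727686 to 37717324 per library, so that 3 counts correspond to 0.0795 to 0.0976 CPM (read counts of a gene relative to the library's total, scaled by TMM throughout), which covers counting error only. The Treg and T cell markers summed to 3749 to 3794 CPM in ctrl-Treg and 6635 to 6764 CPM in Sora-Treg libraries. Most of that gain lay in Il2ra (1911 to 1971 and 3737 to 3844 CPM) and Ctla4 (370 to 394 and 1078 to 1134 CPM). Cd3e and Cd3g also rose (log2 fold changes 0.60 and 1.26). Foxp3 was at 252 to 269 and 268 to 278 CPM, Cd4 moved by 0.061 on the log2 scale, and Ikzf2 was not called (0.021). Of 7 myeloid markers 5 were lower in Sora-Treg cells. Their sum was 24.9 to 93.5 CPM in ctrl-Treg and 20.8 to 42.9 CPM in Sora-Treg libraries, and Lyz2 was at 47.5, 47.9 and 12.6 CPM in the controls. Of the NK cell markers, Nkg7 was lower (24.2 to 27.3 CPM in controls and 4.96 to 6.13 CPM with Sora), Eomes higher (2.10 to 2.34 and 4.12 to 4.99 CPM) and Klrb1c at 0 or 1 count. The B cell markers summed to 1.53 to 2.39 and 0.251 to 0.365 CPM and the CD8 T cell markers to 13.2 to 15.1 and 12.6 to 13.8 CPM. Within the CD8 pair, Cd8a was called lower (-0.71, edgeR adjusted p = 0.00872) and Cd8b1 was not called (0.039). Erythroid and platelet markers stayed at or below 0.157 and 0.356 CPM. The part of these other cells in the results below was not tested. In bulk RNA, fewer cells of a type and less RNA per cell cannot be told apart.

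The 13 mtDNA genes together took 1.92%, 2.12% and 1.97% of all counts in controls and 2.49%, 2.87% and 2.29% with Sora. The lowest Sora-Treg library was therefore above the highest control, and the group means were 2% ± 0.104 and 2.55% ± 0.294 (SD, n = 3). The 95% Wilson intervals, which cover counting error only and not the spread between libraries, were 2.281 to 2.291% in the lowest Sora-Treg library and 2.112 to 2.121% in the highest control. The 100 nuclear genes took 0.770%, 0.783% and 0.766% of counts in controls and 0.722%, 0.707% and 0.717% with Sora. These shares use library totals, the scaling under which the nuclear genes sit lowest. COX1 alone made up 54.6% of the mtDNA counts in controls and 56.1% with Sora on average.

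COX1 (chrM:5328-6872 on GRCm38, as are all coordinates here), the catalytic subunit of complex IV, was the most abundant member. It was at 10259, 11132 and 10085 CPM in controls and at 14453, 16714 and 13471 CPM with Sora. All 3 Sora-Treg values were above all controls, for a log2 fold change of 0.50 ± 0.047 (mean and SE; adjusted p = 3.41e-09 by edgeR). COX2 (chrM:7013-7696), which receives electrons from cytochrome c, was at 50.6, 57.1 and 64.4 CPM and at 99.2, 78.4 and 65.4 CPM. Its groups just failed to overlap, and its log2 fold change was 0.50 ± 0.096 (edgeR adjusted p = 1.09e-04), a call lost with robust fitting (adjusted p = 0.0971) or limma and no filter (adjusted p = 0.168). COX3 (chrM:8607-9390), the remaining mtDNA subunit of complex IV, was the only tested mtDNA gene not called. Its values of 26.5, 39.8 and 30.0 CPM in controls and 29.9, 34.1 and 28.5 CPM with Sora overlapped fully, and its log2 fold change of -0.058 ± 0.10 (edgeR adjusted p = 0.642) became 0.13 without control replicate 2.

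In complex I, all 7 mtDNA genes were called higher, of which ND2, ND3 and ND5 lost their call with robust edgeR fitting or limma, and ND2 and ND3 with DESeq2. ND1 (chrM:2751-3707) was at 1138, 1269 and 1163 CPM in ctrl-Treg and 1731, 2319 and 1591 CPM in Sora-Treg libraries, with no overlap. Its log2 fold change was 0.66 ± 0.078 (edgeR adjusted p = 1.55e-07). ND4 (chrM:10167-11544), another proton-pumping membrane subunit, was at 1151, 1238 and 1247 CPM and at 1659, 1913 and 1593 CPM, again without overlap, for a log2 fold change of 0.51 ± 0.044 (edgeR adjusted p = 9.62e-10). ND5 (chrM:11742-13565) moved least of the called genes. It was at 1891, 2086 and 2153 CPM in controls and 2401, 2605 and 2219 CPM with Sora, without overlap, for a log2 fold change of 0.24 ± 0.043 (edgeR adjusted p = 5.05e-05). In ND2 (chrM:3914-4951) the groups overlapped, since Sora replicate 3 at 834 CPM was below control replicate 2 at 859 CPM. Its log2 fold change was 0.34 ± 0.082 (edgeR adjusted p = 0.00102), and DESeq2 did not call it (adjusted p = 0.119).

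ND6 rose most of the mtDNA genes. ND6 (chrM:13552-14070) is the 1 protein gene of mtDNA read from the opposite strand to all others, and its end overlaps that of ND5 at 13552 to 13565. It was at 10.9, 11.2 and 8.86 CPM in controls and at 30.6, 35.6 and 34.2 CPM with Sora, from 283 to 1216 counts. Every Sora-Treg library was far above every control, with a log2 fold change of 1.69 ± 0.086 (edgeR adjusted p = 7.32e-14). Per length, ND6 stood at 1.79% ± 0.307 of ND5 in controls and 4.90% ± 0.473 with Sora (ratio of FPKM, the deposited values per transcript length and library total; SD, n = 3). An exact two-sided permutation test gave p = 0.1, the smallest that 3 against 3 allows, and 0.1 after Benjamini-Hochberg adjustment over the 8 gene pairs compared in this way. Whether strand was used in counting is not given in the sources used here, so counts of ND6 and of RNA antisense to ND6 cannot be told apart.

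The short mtDNA genes were measured with few counts. ND4L (chrM:9877-10173), whose end overlaps the start of ND4, was at 6.45, 5.93 and 9.21 CPM in controls and 12.2, 13.4 and 13 CPM with Sora, with no overlap and a log2 fold change of 0.85 ± 0.12 (edgeR adjusted p = 3.74e-06). ND3 (chrM:9459-9806) held only 2 counts in control replicate 3, against 72 and 89 in the other controls and 85, 212 and 108 with Sora. Its log2 fold change of 1.49 ± 0.45 (edgeR adjusted p = 0.007) was 0.99 without Sora replicate 2 and then not called (edgeR adjusted p = 0.0703). ATP8 (chrM:7766-7969), a small membrane subunit of ATP synthase, had 2, 10 and 1 counts in controls and 1, 28 and 3 with Sora and did not pass the filter.

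ATP6 (chrM:7927-8607), which forms the proton channel of ATP synthase with the ring of c subunits, was at 50.1, 26.2 and 28.4 CPM in controls and 55.5, 57.2 and 37.3 CPM with Sora. The groups overlapped, and the log2 fold change of 0.50 ± 0.16 (edgeR adjusted p = 0.00973) lost its call without control replicate 2 (0.33, adjusted p = 0.11) or control replicate 3 (0.38, adjusted p = 0.0724). CYTB (chrM:14145-15288), the mtDNA subunit of complex III, was at 3091, 3673 and 3321 CPM and at 4448, 4915 and 3929 CPM. Its groups did not overlap, with a log2 fold change of 0.40 ± 0.054 (edgeR adjusted p = 1.25e-06).

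The mtDNA genes also varied between libraries of 1 group. Sora replicate 2 was the highest library in 10 of 12 tested mtDNA genes. Among controls the highest library differed by gene: replicate 2 for COX1 (11132 CPM), replicate 3 for ND5 (2153 CPM) and replicate 1 for ATP6 (50.1 CPM). The median within-group SD of log2 CPM was 0.22 for the mtDNA genes and 0.061 for the nuclear genes. Single mtDNA genes ranged from 0.11 (ND4 and ND5) to 1 (ND3). In 9 of 12 mtDNA genes every Sora-Treg library was above every control, where 31.8% of all tested genes had this order. With any 1 library left out, between 10 and 12 mtDNA genes were called higher.

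**Figure D2:**
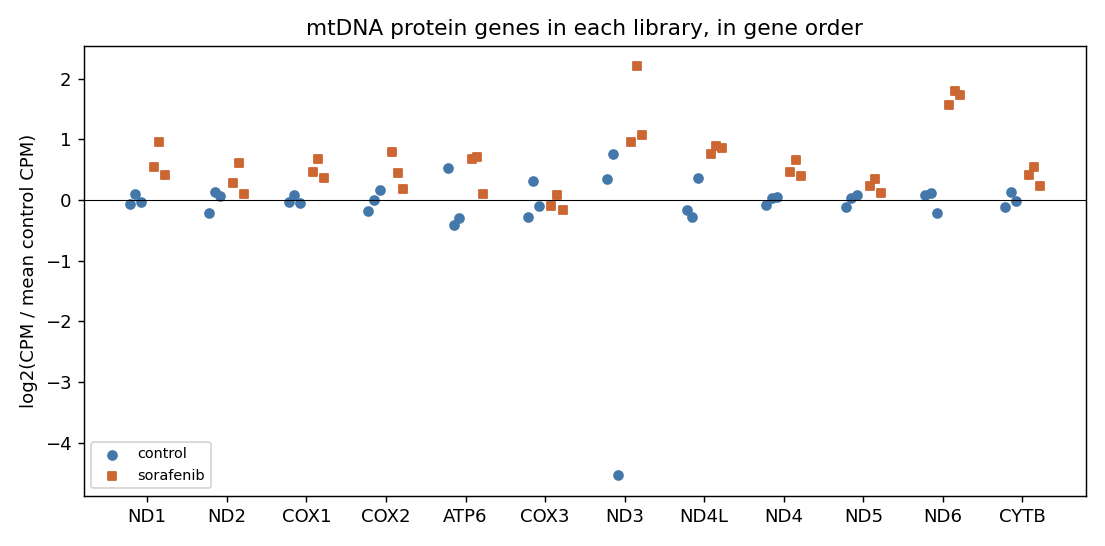
Each tested mtDNA gene is plotted along the horizontal axis in its order on mtDNA, with the log2 of its CPM over the mean control CPM on the vertical axis for 3 control (circles) and 3 Sora (squares) libraries. ND6 separates the groups most clearly (8.86 to 11.2 against 30.6 to 35.6 CPM), COX3 shows no separation, and the low control point of ND3 is control replicate 3 with 2 counts.

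Levels per length differed by several orders among the mtDNA genes, all of which except ND6 are read from the same strand. In FPKM over the 6 libraries, COX1 ranged from 6784 to 10374, CYTB from 2820 to 4120, ND1 from 1241 to 2324, ND5 from 1082 to 1370, ND4 from 872 to 1332 and ND2 from 678 to 1097. COX2 ranged only from 77.2 to 140, ATP6 from 39.8 to 80.5, COX3 from 34.9 to 52.7, ND4L from 20.7 to 43.4 and ND3 from 0.187 to 18.3. ND6 at 17.7 to 65.8 and ATP8 at 0.155 to 4.13 were also low. These levels were set beside the nuclear copies of mtDNA in the mouse genome. A block on chromosome 1 (minus strand, 24611535 to 24616197) is annotated with pseudogenes of ND4, ND4L, ND3, COX3, ATP6, COX2 and COX1, and a further set lies on chromosome 2. The share of each gene's 100-base windows that also occurs in an annotated transcript of another gene was 99.9% for COX3, 99.5% for COX2 and ATP6, 98.5% for ND4L and 97.6% for ND3. It was 60.8% for ND4, 30.8% for COX1 and 3.2% for ND2, and 0 for ND1, ND5, ND6, CYTB and ATP8. The 5 genes over 97% shared were thus all at or below 140 FPKM, and so were ND6 and ATP8, with 0 shared. None of these pseudogenes has a row in the count table, and how reads with several matches were handled is not given in the sources used here. The part of the copies in the levels was not tested. The gap between the annotated copies next to ATP6 is covered by no transcript, so a copy of ATP8 could not be looked for.

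**Figure D3:**
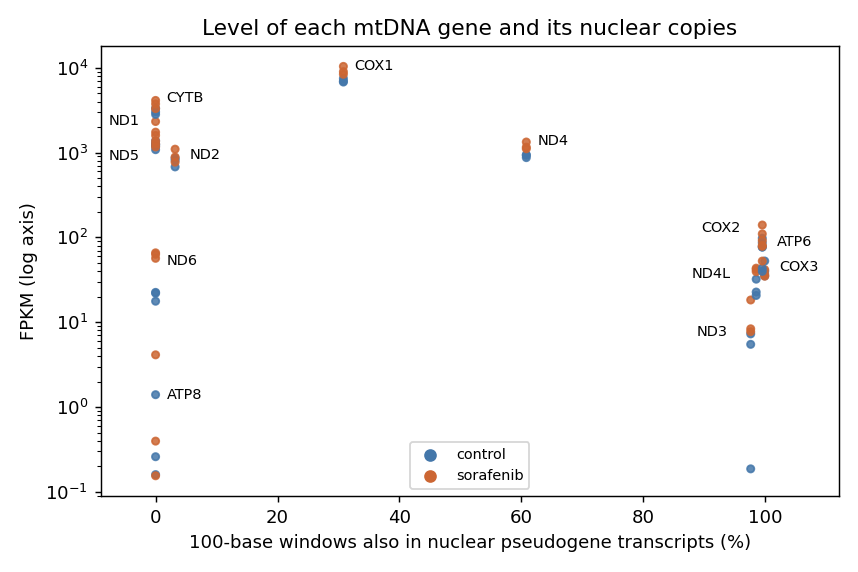
The FPKM of each mtDNA gene in each library (vertical log axis; blue control, orange Sora) is plotted against the percent of its 100-base windows found in transcripts of nuclear pseudogenes. The 5 genes at 97.6 to 99.9% lie between 0.187 and 140 FPKM, while COX1, CYTB, ND1, ND5, ND4 and ND2 lie between 678 and 10374 FPKM at 0 to 60.8%.

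The first 120 bases of COX2 (chrM:7013-7132, plus strand) and of its chromosome 1 copy Gm28661 (chr1:24615446-24615565, minus strand) are shown because no read inside them can be placed by its sequence. Both were read from GENCODE vM21 transcripts, 5′ to 3′, and capitals would mark differing bases, of which there are 0.

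COX2: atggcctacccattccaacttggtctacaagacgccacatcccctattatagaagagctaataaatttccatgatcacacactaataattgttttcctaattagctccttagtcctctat
Gm28661: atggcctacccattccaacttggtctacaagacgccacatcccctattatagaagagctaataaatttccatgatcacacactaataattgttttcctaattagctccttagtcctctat

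Over the full aligned lengths, COX2 matched its copy at 681 of 681 bases, COX3 at 783 of 783, ATP6 at 678 of 678, ND4L at 294 of 294 and ND3 at 344 of 345. The single ND3 difference is T3C, counted from the first base of the gene with the mtDNA base first. A group of 5 tested genes with under 5% of windows shared (ND1, ND2, ND5, ND6 and CYTB) was formed after the data had been seen. All were called higher, with log2 fold changes of 0.24 to 1.69 and a median of 0.40. Membership depended on window length. With 50-base windows ND2 shared 8.2% and ND5 7.6%, both over the limit, while ND1, ND6 and CYTB stayed at 0.

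Within each complex, mtDNA counts were then set against nuclear subunit counts of the same library, a ratio that does not depend on library scaling. For complex I, the summed CPM of 7 mtDNA genes was set over that of 37 nuclear subunit genes. This ratio was 2.75, 3.04 and 3.08 in ctrl-Treg and 3.69, 4.46 and 3.41 in Sora-Treg libraries. The difference in mean log2 ratio was 0.38 (1.30-fold), and 0.93 when taken as a mean of log2 CPM per gene. That mean weights ND3, at 0.0626 CPM in control replicate 3, the same as ND5 at 2153 CPM. For complex III the ratios were 3.78, 4.45 and 4.10 in controls and 5.35, 5.90 and 4.69 with Sora (0.37, 1.29-fold). For complex IV they were 7.43, 7.73 and 7.31 in controls and 9.98, 11.9 and 9.29 with Sora (0.47, 1.38-fold). Nearly all of the complex IV mtDNA sum was COX1 (10259 of 10337 CPM in control replicate 1), so this ratio says little of COX2 and COX3. In all 3 complexes the groups did not overlap. In complex V, the ratios of 0.0176, 0.00906 and 0.00992 in controls and 0.0195, 0.0208 and 0.0133 with Sora overlapped. Complex II has no mtDNA gene, and its 4 nuclear genes summed to 391, 399 and 392 CPM in controls and 391, 387 and 387 CPM with Sora.

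**Figure D4:**
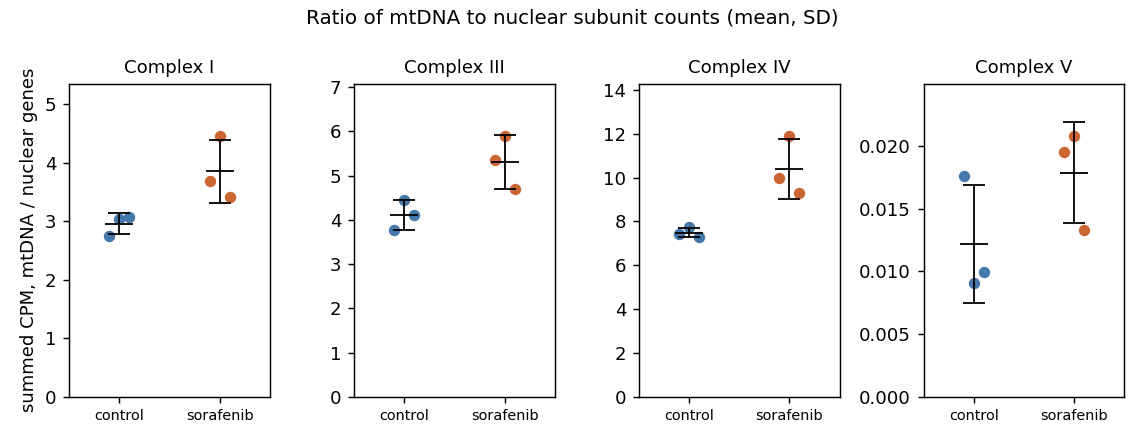
The ratio of summed mtDNA to summed nuclear subunit CPM is plotted for each library by complex, with the mean and SD of 3 control and 3 Sora libraries and a separate vertical axis from 0 for each complex. Sora-Treg libraries lie above all controls in complexes I (3.41 to 4.46 against 2.75 to 3.08), III and IV, and overlap them in complex V.

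Among nuclear complex I genes, 40 of 41 passed the filter. Of these, 7 were higher and 12 lower (17.5% and 30%, against 29.7% and 29.9% of all tested genes). The 41 include 4 gene copies, 1 of which (Ndufab1-ps) is among the 12 lower. Of the 7 core subunits, which carry the flavin and iron-sulfur clusters, 3 were lower (Ndufs8, Ndufv1 and Ndufv2), by 0.17 on the log2 scale at most. The largest increase was that of Ndufv3, an accessory subunit of the NADH-oxidising module. Ndufv3 (chromosome 17, 31520115 to 31531326) was at 95.7, 90.4 and 94.9 CPM in ctrl-Treg and 171, 152 and 171 CPM in Sora-Treg libraries. The groups were far apart, with a log2 fold change of 0.81 ± 0.042 (edgeR adjusted p = 1.19e-13), while its partner Ndufv1, the flavin-carrying subunit of the same module, had one of -0.12 (adjusted p = 0.0266). Their FPKM ratio was 162% ± 9.61 in controls and 310% ± 17.5 with Sora (SD, n = 3, exact permutation p = 0.1).

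Other accessory subunits moved less. Ndufb11, in the membrane arm, rose from 51.4 ± 0.976 to 65.3 ± 1.46 CPM (SD, n = 3, log2 fold change 0.34, edgeR adjusted p = 2.89e-07) and Ndufb1 from 26.9 ± 1.94 to 32.7 ± 2.91 CPM (0.28, adjusted p = 0.00128). Ndufab1, the mitochondrial acyl carrier protein, which also serves fatty acid and lipoate synthesis, was at 36.7, 38.5 and 38.1 CPM in controls and 28.4, 28 and 25.6 CPM with Sora. It fell by 0.47 ± 0.058 on the log2 scale (edgeR adjusted p = 2.80e-07), and its pseudogene Ndufab1-ps, with 67 to 87 counts in controls and 29 to 57 with Sora, was also called lower (-0.74). The pair may share reads, since 49.9% of the windows of Ndufab1-ps occur in other transcripts, most often those of Ndufab1. Ndufb2 fell from 15 ± 0.857 to 11.3 ± 0.540 CPM (-0.40, edgeR adjusted p = 2.93e-04).

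Assembly factors of complex I leaned lower. Of 8 Ndufaf genes, 5 were lower (62.5%, against 29.9% of all tested genes) and 1 higher, with a median log2 fold change of -0.25. Ndufaf2 was at 8.97, 10.2 and 9.68 CPM in controls and 7.38, 7 and 6.63 CPM with Sora (-0.46 ± 0.11, edgeR adjusted p = 7.27e-04), and Ndufaf5 at 13, 13.7 and 12.9 and at 8.70, 10.8 and 9.92 CPM (-0.43 ± 0.094, adjusted p = 4.96e-04). Neither overlapped between the groups. Ndufaf4 and Ndufaf7 were lower by smaller steps (-0.26 and -0.24), and Ndufaf6, at 7.11 ± 0.458 and 4.38 ± 1.04 CPM, was lower by 0.71 on the log2 scale. Ndufaf3 was the exception at 7.50 ± 1.41 and 9.75 ± 0.381 CPM (0.38 ± 0.12, adjusted p = 0.00831), and it lost its call with library totals.

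Complex II, which also belongs to the tricarboxylic acid cycle, barely moved. Sdha, the flavoprotein, was at 204, 207 and 204 CPM in controls and 203, 199 and 199 CPM with Sora (-0.033 ± 0.029, edgeR adjusted p = 0.351). Sdhc and Sdhd, its membrane anchors, had log2 fold changes of -0.034 (adjusted p = 0.52) and 0.10 (adjusted p = 0.071). The iron-sulfur subunit Sdhb was called lower by a narrow margin (-0.11 ± 0.048, adjusted p = 0.0486), at 57.9, 60.1 and 63.4 CPM and at 58.0, 52.8 and 56.9 CPM. Its groups overlapped at the edge, with Sora replicate 1 above control replicate 1, and DESeq2 did not call it.

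Of the complexes, complex III had the highest share of called nuclear genes, though it has only 9. Of these, 6 were lower and 2 higher (66.7% and 22.2%, against 29.9% and 29.7% of all tested genes). Their median log2 fold change was -0.20. Cyc1, the cytochrome c1 haem subunit, was at 75.4, 74.0 and 72.5 CPM in controls and 64.2, 65.7 and 62.8 CPM with Sora (-0.20 ± 0.040, edgeR adjusted p = 1.46e-04). The structural subunit Uqcrc1 was at 117, 120 and 118 CPM and at 102, 98.8 and 99.6 CPM (-0.24 ± 0.035, adjusted p = 2.86e-06). Uqcr10, Uqcr11 and Uqcrq, small subunits, were lower by 0.27, 0.23 and 0.21 on the log2 scale, and their decreases were all under 1.3-fold. Against these, Uqcrh, the hinge protein that contacts cytochrome c1, was at 181, 190 and 184 CPM in controls and 248, 246 and 250 CPM with Sora. Uqcrh rose by 0.42 ± 0.030 on the log2 scale (edgeR adjusted p = 3.60e-11) with none of its windows shared with another gene. Uqcrfs1, the Rieske iron-sulfur protein, rose by 0.17 (adjusted p = 3.57e-04). Cytochrome c itself (Cycs), the carrier from complex III to IV, was at 49.3 ± 1.82 and 46.5 ± 1.23 CPM (SD, n = 3) and was not called (-0.086, adjusted p = 0.122).

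In complex IV, most ubiquitous subunits moved little, and the tissue-restricted isoforms Cox6a2 and Cox4i2 had the largest log2 fold changes of the 107 tested members. Cox4i1, the common form of subunit 4, was at 251, 258 and 246 CPM in controls and 265, 256 and 262 CPM with Sora (0.05 ± 0.029, edgeR adjusted p = 0.155). Cox4i2, the isoform best known from lung and from cells in low oxygen, was at 1.96, 1.98 and 2 CPM (64 to 77 counts) and at 8.21, 8.53 and 8.79 CPM (249 to 313 counts). This log2 fold change of 2.10 ± 0.14 (edgeR adjusted p = 1.07e-11) was the highest of the 107 tested members. Even so, Cox4i2 stood at only 0.826% ± 0.0261 of Cox4i1 per length in controls and 3.43% ± 0.151 with Sora (SD, n = 3, exact permutation p = 0.1).

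Cox6a2, the heart and skeletal muscle form of subunit 6a, was at 2.92, 3.05 and 2.79 CPM (89 to 115 counts) in controls and 0.198, 0.251 and 0.225 CPM (6 to 8 counts) with Sora. It fell by 3.68 ± 0.31 on the log2 scale (edgeR adjusted p = 7.64e-10), the largest change among the members. Cox6b2, known as the testis form of subunit 6b, was well expressed here, at 43.2, 46.2 and 43.1 CPM in controls and 18.0, 17.6 and 15.8 CPM with Sora (-1.37 ± 0.063, edgeR adjusted p = 1.30e-14). Its common counterpart Cox6b1 rose from 103, 104 and 103 CPM to 125, 117 and 125 CPM (0.25 ± 0.036, adjusted p = 2.84e-06). The ratio of Cox6b2 to Cox6b1 in FPKM was 33.3% ± 1.2 and 10.9% ± 0.948, and that of Cox6a2 to Cox6a1 3.48% ± 0.181 and 0.242% ± 0.0411 (SD, n = 3, exact permutation p = 0.1 for both).

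Cox7a1, the heart and muscle form of subunit 7a, moved the other way from Cox6a2. It was at 0.991, 1.57 and 0.971 CPM in controls and 2.08, 2.42 and 2.19 CPM with Sora (0.92 ± 0.27, edgeR adjusted p = 0.00487). Relative to Cox7a2 it was at 3.30% ± 0.712 and 5.77% ± 0.408 in FPKM. Cox7a2l, a supercomplex assembly factor related to subunit 7a, was not called (0.05, adjusted p = 0.15). Ndufa4, first described in complex I and now placed in complex IV, was at 34.2, 35.6 and 34.5 CPM and at 22.8, 25.4 and 25.2 CPM and fell by 0.51 ± 0.060 on the log2 scale (adjusted p = 1.73e-07). Cox5a was lower by 0.14 and Cox6a1, Cox7a2 and Cox8a were higher by 0.15, 0.13 and 0.14, and those 3 higher calls did not hold with library totals. The remaining isoform genes Cox7b2, Cox8b, Cox8c and Ndufa4l2 had at most 10 counts in any library and were not tested, like Ndufb4c with at most 12. Neither Cox4i2, Cox6a2, Cox6b2 nor Cox7a1 shared any 100-base window with another gene.

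In ATP synthase, Atp5g1 stood apart. The Atp5g1, Atp5g2 and Atp5g3 genes encode the same mature c subunit with different import sequences. Atp5g1 was at 48.3, 56.6 and 49.6 CPM in controls and 32.0, 30.0 and 30.9 CPM with Sora, and fell by 0.73 ± 0.059 on the log2 scale (edgeR adjusted p = 2.60e-10). Atp5g2 and Atp5g3 were at 141 to 150 and 106 to 119 CPM in controls and 136 to 154 and 110 to 116 CPM with Sora, with log2 fold changes of -0.011 (adjusted p = 0.826) and 0.0052 (adjusted p = 0.923). Of the FPKM of the 3 genes together, Atp5g1 held 14.4% ± 0.886 in controls and 9.22% ± 0.171 with Sora (SD, n = 3). Their summed CPM overlapped between the groups, at 296, 323 and 315 in controls and 302, 276 and 292 with Sora. Atp5g2 shares 34.7% and Atp5g1 5.9% of its windows with transcripts of other genes.

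The catalytic F1 subunit Atp5b was at 859, 862 and 849 CPM and at 756, 743 and 762 CPM (-0.19 ± 0.024, edgeR adjusted p = 4.95e-07). Atp5d, the delta subunit of the F1 stalk, went the other way, from 170, 182 and 164 CPM to 232, 234 and 222 CPM (0.42 ± 0.036, adjusted p = 8.53e-10). The small Fo subunits Atp5j2 and Atp5md rose by 0.18 and 0.21. Over the 17 nuclear genes of complex V, 5 were higher, 3 lower and 9 not called, with a median of 0.057. The shares higher and lower were 29.4% and 17.6%, against 29.7% and 29.9% of all tested genes.

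**Figure D5:**
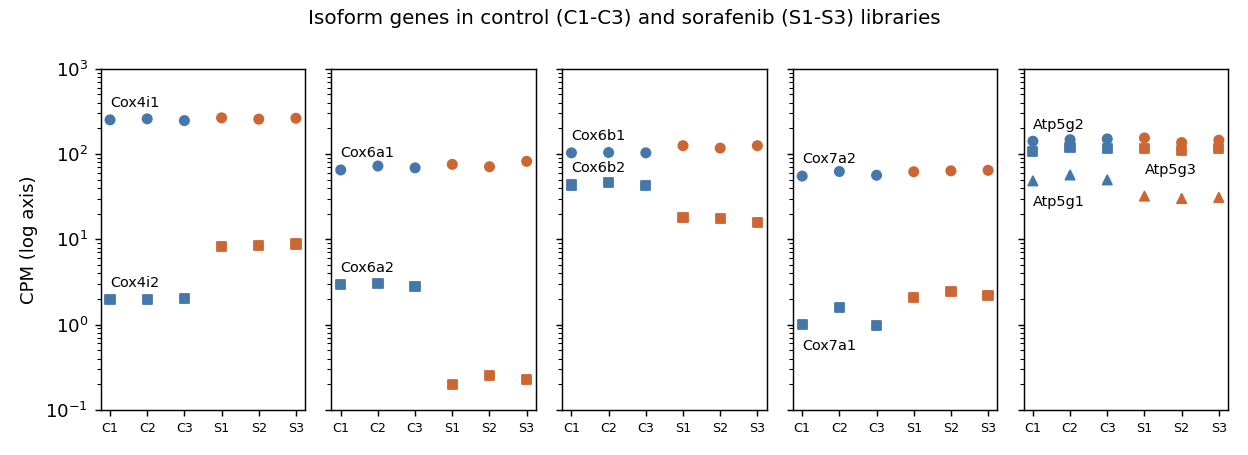
The CPM of isoform genes is plotted on a log axis for control (C1 to C3) and Sora (S1 to S3) libraries, with circles for the more abundant gene of each family and squares or triangles for the others. Cox4i2 lies at 1.96 to 2 and 8.21 to 8.79 CPM, Cox6a2 at 2.79 to 3.05 and 0.198 to 0.251 CPM, and Atp5g1 at 48.3 to 56.6 and 30.0 to 32.0 CPM.

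The promoters of nuclear members were searched for the motifs of factors known to bind such genes, on both strands, in 250 bases before and 50 after the RefSeq start (GRCm38.p6). A promoter was found for 79 of 100 nuclear members. The NRF1 motif, GCGC and TGCGC separated by any 1 base, was present in 24.1% of them, against 5.2% of all promoters and 11.2% of those of tested genes. The ETS motif CCGGAAG, which GABP binds, was in 24.1% against 9.9% and 19.8%, and the YY1 motif AAGATGGCG in 10.1% against 1.6% and 3.4%. By call, the NRF1 motif was in 3 of 19 higher, 4 of 24 lower and 12 of 34 uncalled members, and the ETS motif in 6, 4 and 9 of them. CCAAT was in 12, 9 and 13, or 44.3% of all members against 41.1% of all promoters. The promoters of a riser and a faller of the same complex are given, with bases of NRF1 and ETS matches in capitals. Uqcrh lies at chr4:116075021-116075320 on the minus strand and Uqcrc1 at chr9:108936398-108936697 on the plus strand.

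Uqcrh: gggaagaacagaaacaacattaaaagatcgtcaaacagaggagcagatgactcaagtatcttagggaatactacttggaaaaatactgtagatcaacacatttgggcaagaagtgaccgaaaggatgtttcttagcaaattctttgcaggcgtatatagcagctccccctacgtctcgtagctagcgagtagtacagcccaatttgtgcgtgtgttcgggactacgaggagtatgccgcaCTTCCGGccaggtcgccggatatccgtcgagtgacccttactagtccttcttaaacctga
Uqcrc1: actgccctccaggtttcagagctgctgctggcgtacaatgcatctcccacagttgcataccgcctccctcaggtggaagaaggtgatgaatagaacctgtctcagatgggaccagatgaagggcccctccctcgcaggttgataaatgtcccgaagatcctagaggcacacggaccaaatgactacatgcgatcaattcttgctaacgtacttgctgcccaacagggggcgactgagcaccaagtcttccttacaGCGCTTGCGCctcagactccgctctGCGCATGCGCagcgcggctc

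Uqcrh, which rose, holds an ETS match and no NRF1 match, and Uqcrc1, which fell, holds NRF1 matches and no ETS match. Other genes of the complex did not follow this split: Uqcr11 fell with an ETS match and no NRF1 match, and Uqcr10, which fell, and Uqcrfs1, which rose, held neither. A match is a description of the letters and not a bound site.

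Genes that serve the chain without being subunits were counted by list. Of 44 tested assembly factors other than the Ndufaf series, 9 were higher and 19 lower, with a median log2 fold change of -0.15. These are 20.5% and 43.2%, against 29.7% and 29.9% of all tested genes. Sdhaf1, which helps insert iron-sulfur clusters into complex II, was at 31.4, 30.2 and 27.9 CPM in controls and 19.4, 19.4 and 18.9 CPM with Sora (-0.63 ± 0.067, edgeR adjusted p = 2.40e-08). Taco1, a translational activator of COX1, was at 13.1 ± 0.745 and 8.70 ± 0.312 CPM (-0.59, adjusted p = 7.49e-06), and Tmem126a at 12.3 ± 0.844 and 8.07 ± 0.371 CPM (-0.61, adjusted p = 9.31e-06). Of 13 genes of coenzyme Q synthesis, 1 was higher and 5 lower (38.5%, against 29.9% of all tested genes), Coq2, Coq5 and Coq3 by 0.48, 0.37 and 0.29 on the log2 scale.

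Of 34 tested genes that replicate or transcribe mtDNA or mature its RNA, 4 were higher and 12 lower, with a median of -0.15. These are 11.8% and 35.3%, against 29.7% and 29.9% of all tested genes. Tfam, which packages mtDNA and starts its transcription, was at 55.9, 53.0 and 57.0 CPM in controls and 47.1, 50.7 and 50.2 CPM with Sora (-0.16 ± 0.047, edgeR adjusted p = 0.00475). The mitochondrial RNA polymerase Polrmt was at 29.1, 32.1 and 31.8 CPM and at 28.4, 28.3 and 29.6 CPM and was not called (-0.11, adjusted p = 0.133). Tfb1m, which methylates mitochondrial ribosomal RNA, was at 10.8, 9.09 and 11.3 CPM and at 5.50, 6.37 and 5.79 CPM (-0.82 ± 0.11, adjusted p = 1.74e-06). Top1mt, the mitochondrial topoisomerase, and Fastkd2, an RNA-binding protein of the mitochondrion, were lower by 0.68 and 0.67 on the log2 scale. The 4 higher genes were Tfb2m (0.35, edgeR adjusted p = 0.00135), Polg (0.31, adjusted p = 2.65e-08), Fastk (0.24, adjusted p = 1.15e-04) and Grsf1 (0.23, adjusted p = 1.25e-05). Tfb2m was at 13.9 ± 1.70 CPM in controls and 17.8 ± 0.356 CPM with Sora (SD, n = 3).

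Of 13 tested transcription factors and coactivators of respiratory genes, 4 were higher and 5 lower. These shares of 30.8% and 38.5% lie near the 29.7% and 29.9% of all tested genes. Ppargc1b, a coactivator of mitochondrial biogenesis, was at 10.6, 9.20 and 9.61 CPM in controls and 5.37, 4.49 and 5.34 CPM with Sora (-0.95 ± 0.12, edgeR adjusted p = 2.42e-07). Its relative Ppargc1a had at most 50 counts in a library and was not called (0.75 ± 0.32, adjusted p = 0.0501), although its groups did not overlap at 0.635 to 1.04 and 1.22 to 1.45 CPM. Gabpb1, a subunit of GABP, fell by 0.67 (adjusted p = 2.51e-12) and the related coactivator Pprc1 by 0.45 (adjusted p = 4.47e-10). Gabpb1 was at 107 ± 4.77 and 66.9 ± 1.93 CPM. Gabpb2, from the same list, was at 190 ± 2.22 and 193 ± 3.29 CPM and was not called (0.024, adjusted p = 0.51). Ppard, a nuclear receptor of fatty acid oxidation genes, was at 50.4, 55.1 and 50.6 CPM in controls and 66.9, 69.3 and 67.5 CPM with Sora (0.38 ± 0.045, adjusted p = 1.29e-07). Gabpa, the DNA-binding subunit of GABP, was higher by 0.18 (adjusted p = 0.00102), a call that did not hold with library totals. Nrf1 was at 52.5 ± 1.91 and 55.7 ± 0.900 CPM and was not called (0.084, adjusted p = 0.111).

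Other mitochondrial genes served as a reference for the organelle at large. Of 28 tested, 4 were higher and 13 lower, with a median of -0.081. These are 14.3% and 46.4%, against 29.7% and 29.9% of all tested genes. The matrix chaperonin Hspd1 was at 518, 523 and 528 CPM in controls and 266, 287 and 263 CPM with Sora (-0.94 ± 0.031, edgeR adjusted p = 2.04e-17), and its partner Hspe1 fell by 0.55. Afg3l2, a protease of the inner membrane, was at 161, 162 and 162 CPM and at 330, 335 and 327 CPM (1.03 ± 0.028, adjusted p = 1.04e-18).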

How the data were processed

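RNA-seq was analysed from 3 ctrl-Treg and 3 Sora-Treg libraries, grouped and numbered by their titles. The authors deposited raw counts and FPKM per gene symbol for 22939 genes. Each deposited FPKM is the count over the library total and 1 fixed gene length, so it is no separate measurement. The submitters' processing notes name fastp, HISAT2, HTSeq, R 3.2.0, DESeq2 and the build GRCm39, whereas the methods of the study name Bowtie2 and GRCm38. Which applies to these files was not settled. Versions other than that of R are not given in the sources used here.

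Counts were fitted in R 4.3.3 with edgeR 4.0.16 (quasi-likelihood F test), with TMM scaling, filterByExpr (13463 genes), no covariate, two-sided, and Benjamini-Hochberg adjustment over all tested genes. The study's fold limit of 2 was given beside calls at any fold. Standard errors are those the F statistic implies. Ratios of FPKM were tested by exact permutation. Libraries of a group differed by more than sampling noise (chi-square per degree of freedom 3.36 to 5.91). DESeq2 1.42.0, limma 3.58.1 on log2(FPKM + 1) or log2(FPKM + 0.1) with a mean FPKM of at least 1 or no filter, other scalings and filters, robust fitting, a replicate block and each library left out were alternatives.

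The members, lists and alternatives were chosen with earlier results of these data known. Genes named are all mtDNA genes, Sdha to Sdhd, Cyc1, Cycs, the isoform genes of complexes IV and V, up to 5 genes with the largest absolute log2 fold change per complex (adjusted p under 0.05, mean log2 CPM of at least 3), up to 3 per list, and Ppargc1a, Ppargc1b, Tfam, Polrmt, Nrf1 and Gabpa. Ndufs8, Ndufv1, Ndufv2, Ndufaf6, Ndufab1-ps, Uqcrfs1, Tfb2m, Polg, Fastk, Grsf1, Gabpb2 and the untested genes were named after their values were seen. Transcript windows came from GENCODE vM21 and promoters from RefSeq. A gene is not reported here by name.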

Additional observations from a re-analysis of the deposited data

How the results depend on the processing

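The median of the tested mtDNA genes was above 0 under every setting, with 11 called under all scalings and count filters, but 8 with DESeq2, 6 with robust edgeR, 7 with limma on log2(FPKM + 1) or log2(FPKM + 0.1), 5 with limma and no filter, and 10 to 12 with a library left out. Robust fitting lost ND2, ND3, ND5, COX2 and ATP6. Restricted to genes with few shared windows, an alternative chosen after seeing the data, 5 of 5 remained. That set included ND2 and ND5, which exceeded its 5% limit with 50-base windows (8.2% and 7.6%). The difference in median between mtDNA and nuclear subunits was 0.42 to 0.61 throughout.

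Nuclear calls depended on scaling. With library totals they were 10 higher and 48 lower, with limma at either pseudocount 11 and 56, and with limma and no filter 8 and 48. With a library left out they were 17 to 25 higher and 23 to 29 lower. The nuclear subunit median of -0.0047 became -0.043 with upper quartile scaling, -0.12 with library totals or filtered limma, -0.10 with unfiltered limma and -0.037 to 0.012 with a library left out. Library totals and filtered limma gave 4 higher assembly factors (also unfiltered), 2 higher transcription factors (also unfiltered), 22 lower reference genes, and 19 (library totals) or 20 lower genes of mtDNA expression, of which 2 were higher with unfiltered limma. Higher coenzyme Q genes were 0 with upper quartile or library-total scaling, the any-count filter, DESeq2 and limma, and 0 to 2 with a library left out. edgeR with TMM had called 1.

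The gain in mtDNA share, 0.548 points of counts, was 0.942 points of FPKM. The complex I difference of 0.38 was 0.93 as a mean of log2 CPM per gene, in which ND3, with 2 counts in control replicate 3, has full weight. Without ATP8, ATP6, ND4L and ND4, complex V has no mtDNA gene and no value.

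Signs turned only near 0. COX3 was between -0.18 and 0.13 when single libraries were dropped, the latter without control replicate 2. With library totals and limma Sdhd was at -0.015, Cox4i1 at -0.066 and -0.065, Cox7a2l at -0.065, Atp5g3 at -0.11 and Nrf1 at -0.032, and at -0.023 (log2(FPKM + 1), with and without filter) or -0.029 (log2(FPKM + 0.1)). Atp5g3 was also at -0.033 (upper quartile), -0.00013 (TMM without mtDNA), -0.0092 (any-count filter) and at -0.039, -0.0056 and -0.0025 without control 1, Sora 1 and Sora 3 (range -0.039 to 0.045 with a library left out). Atp5g2 was at 0.0068 and 0.036 without control 3 and Sora 2 (range -0.051 to 0.036). Of 73 named genes, 42 kept direction and call in all settings.

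Deviations of same-numbered libraries from their group means had correlations of -0.0311, 0.0813 and 0.043. Such correlations cannot show whether these libraries share a culture or animal. With a replicate block 23 nuclear genes were higher and 32 lower, with 11 mtDNA genes higher. Depth limits ATP8 and ND3, and the isoforms with at most 12 counts.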
